A study of Mus musculus with 4 samples.

Results

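The integrin, laminin and nidogen genes were examined in 3T3-L1 cells, a mouse preadipocyte line, after 8 days of adipogenic differentiation with CACUL1 raised or lowered. They were chosen by name: every row whose RefSeq identifier belonged to an integrin alpha chain, an integrin beta chain, Itgbl1, a laminin chain or a nidogen was taken. Of 38 such symbols 26 were found among the 13085 genes of the tables, namely 10 integrin alpha chains, 6 beta chains, Itgbl1, 7 laminin chains and the 2 nidogens. The other 12 (Itga2, Itga4, Itga8, Itga9, Itgam, Itgax, Itgb6, Itgb8, Lama1, Lama3, Lama5 and Lamc3) have no row in the tables used here.

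RNA-seq was performed on 4 stable lines with 1 sample each, so no spread between replicates could be estimated and no test was run. FLAG carried the empty FLAG vector and FLAG-CACUL1 the same vector with CACUL1, both selected with G418. The sh-Luc line carried a hairpin against luciferase and sh-CACUL1 a hairpin against CACUL1, both selected with Hygromycin B. The controls thus went through transfection, drug selection and colony growth too, and the sources used here do not say whether a line was 1 clone or a pool. All 4 lines received the same differentiation medium at confluence, with Rosiglitazone at 5 µM, IBMX at 0.5 mM, dexamethasone at 1 µg/ml and insulin at 5 µg/ml, and then insulin alone until day 8. CACUL1 is a partner of nuclear receptors, and the comparisons ask how its gain or loss alters gene expression in cells taken through adipogenesis.

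Integrins are transmembrane receptors in which an alpha chain pairs with a beta chain, and the pair decides which matrix protein is bound and passes the contact on to the actin cytoskeleton. Laminins are secreted trimers of an alpha, a beta and a gamma chain that form the cell-facing sheet of the basement membrane, and nidogens are rod-like proteins that link the laminin gamma1 chain to the collagen IV network. Differentiating preadipocytes leave a fibronectin-rich matrix and come to lie in a basement membrane of their own, and a change from fibronectin-binding to laminin-binding integrins is known from this process.

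The stretches upstream of 4 members are shown because their genes carry the main results: Itgb1 is the most abundant beta chain, Itgbl1 has the widest change on the log2(FPKM + 1) scale, and Lamb1 and Nid1 are among the most abundant matrix members. Each is the RefSeq promoter window of build GRCm38.p6, on the plus strand, up to the base before the first annotated exon base. Itgb1 is read from chr8:128685404-128685653, Itgbl1 from chr14:123659890-123659970, Lamb1 from chr12:31265043-31265233 and Nid1 from chr13:13437352-13437550. Capitals mark matches to the motifs searched.
Itgb1: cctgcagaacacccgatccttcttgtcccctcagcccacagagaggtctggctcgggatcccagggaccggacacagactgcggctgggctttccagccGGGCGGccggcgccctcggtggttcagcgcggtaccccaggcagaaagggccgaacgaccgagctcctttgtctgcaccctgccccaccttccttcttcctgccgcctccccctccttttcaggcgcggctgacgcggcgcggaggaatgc
Itgbl1: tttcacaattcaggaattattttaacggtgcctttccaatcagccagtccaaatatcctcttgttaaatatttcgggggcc
Lamb1: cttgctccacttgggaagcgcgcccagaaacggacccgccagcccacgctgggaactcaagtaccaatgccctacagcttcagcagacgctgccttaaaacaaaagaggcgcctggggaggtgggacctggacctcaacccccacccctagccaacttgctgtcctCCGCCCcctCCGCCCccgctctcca
Nid1: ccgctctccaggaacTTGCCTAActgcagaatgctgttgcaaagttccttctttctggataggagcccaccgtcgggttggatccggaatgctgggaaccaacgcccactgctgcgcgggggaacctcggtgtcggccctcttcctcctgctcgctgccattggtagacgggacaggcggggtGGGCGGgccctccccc
The GC content was 68.0% for Itgb1, 63.9% for Lamb1 and 63.8% for Nid1 but 39.5% for Itgbl1. The capitals in Itgb1, Lamb1 and the downstream part of Nid1 are GC boxes (GGGCGG on either strand), and those near the start of the Nid1 stretch are a C/EBP motif (TTGCNNAA on either strand), the family of factors that starts adipogenesis. The Itgbl1 stretch holds neither, and a GC box of its RefSeq window lies beyond the bases shown.

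A promoter window was found for 15 members, 17 windows in all. Over the 250 bases before the RefSeq start, 8 of the 17 held a GC box against 32.7% of 32851 windows of all genes, and their median GC content was 58.8% against 52.4%. The C/EBP motif was in 1 of 17 (9.56% of all windows). None of the 17 held a TATA box (TATAAA, 12.4% of all windows), an AP-1 motif (TGANTCA, 6.75%), the nuclear receptor half-site AGGTCA (14.0%) or the PPAR element, 2 such half-sites in direct repeat with any 1 base between them (0.0335%). All were searched on both strands. A match describes the letters and is not evidence of binding, and a missing match says only that these letters are not in the window.

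Levels are in FPKM, fragments scaled to transcript length and library size, which allows genes to be compared with one another. Depth, inferred from the spacing of the lowest FPKM values, was 14.3 to 15.0 (in units of 1000000 fragments) in 3 lines and 24.0 in sh-Luc. A single fragment on a 2 kb transcript then equals 0.0208 to 0.0351 FPKM. Cacul1 itself had 9.61 FPKM in FLAG and 11.8 in FLAG-CACUL1, with 10.2 in sh-Luc and 5.39 in sh-CACUL1, log2 differences of 0.27 and -0.82 that do not reach 2-fold. These are RNA values, and the study checked its stable lines at the protein level by western blot, with antibodies against FLAG or CACUL1. The species of the CACUL1 insert is not given in the sources used here. Differences below are log2 ratios of FPKM + 1, which understate low genes, and a gene counts as changed at 2-fold or more, the cut-off used in the study. Folds quoted with an interval are ratios of FPKM without the added 1, and the 95% interval covers counting error only, from the estimated fragments.

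The lines also differed in adipocyte marker RNA. The summed FPKM of 10 adipocyte markers was 9468 in FLAG and 941 in FLAG-CACUL1, with 1799 in sh-Luc and 17732 in sh-CACUL1. All 10 were changed downwards in FLAG-CACUL1 against FLAG and upwards in sh-CACUL1 against sh-Luc, and all 10 were higher in FLAG than in sh-Luc, 9 of them by at least 2-fold. The 8 preadipocyte and fibroblast markers with a row (Cd34 had none) summed, in that order, to 6379, 10390.3, 4544 and 934 FPKM, mostly Col1a1, Col1a2 and Col3a1. With overexpression 5 of the 8 rose and Dlk1 fell, from 97.2 to 39.4 FPKM. With depletion 5 fell and 2 rose, Dlk1 from 0.220 to 21.2 and Thy1 from 0.663 to 34.3 FPKM. In sh-CACUL1 against sh-Luc the median log2 difference over all genes was -0.30, and the differences and counts given for single genes include this shift. With it subtracted, 7 of the members that fell (Itga1, Itga3, Itga6, Itgb3, Itgb7, Lamb1 and Lamc1) come below 2-fold. In bulk RNA, fewer cells of a type and less RNA per cell cannot be told apart.

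With CACUL1 overexpressed, the laminin-binding chains Itga6 and Itga7, both nidogens and the minor laminin chains Lama2 and Lamb3 fell, together with Itga11, while Itgbl1 and Itgb2 rose. These are 9 of 26 members (34.6%), against 14.7% of all genes. The 2 that rose compare with 7.51% of all genes and the 7 that fell with 7.22%. The median over the members was -0.32, against 0.09 over all genes. All 10 adipocyte markers fell in the same comparison, and their part in the result was not tested. Against sh-Luc in place of FLAG, Itga6, Itga7, Itga11, Itgb2, Lama2, Lamb3 and Nid2 came within 2-fold and Itgbl1 was lower, at -1.14.

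With CACUL1 depleted, most of the abundant integrin and laminin genes fell. Of the 26 members, 16 were changed (61.5%), against 21.3% of all genes: 15 were lower (16.4% of all genes) and 1, Itga7, was higher (4.94% of all genes). The median over the members was -1.15, which is -0.84 relative to the median of all genes. After quantile normalization or median-of-ratios scaling this relative value was -0.90 and -0.81, and 13 and 11 members were changed. The shares of all genes changed under these scalings were 17.3% and 16.9%. The members that came below 2-fold under 1 or both scalings were Itga6, Itgb3, Itgb7, Lamb1 and Lamc1. All 10 adipocyte markers rose in this comparison, and their part in the result was not tested. Against FLAG in place of sh-Luc, Itga1, Itga3, Itga7, Itgb1, Itgb2, Itgb7, Itgbl1, Lama4 and Lamb2 came within 2-fold.

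The 2 control lines, which differ in vector and drug but not in CACUL1 treatment, were as far apart. Between FLAG and sh-Luc, 15 of 26 members were changed (57.7%), against 21.0% of all genes. Of these, 7 were higher in FLAG (8.58% of all genes) and 8 lower (12.4% of all genes). After median-of-ratios scaling the split became 10 higher and 4 lower, and after quantile normalization 9 and 6. Of all genes, 19.1% and 19.0% were changed under these scalings. FLAG held the highest level of 14 members (53.8%, against 22.3% of all genes) and sh-Luc that of 10 (38.5%, close to the 37.1% of all genes), while FLAG-CACUL1 held the highest level of none (21.8% of all genes). The lowest level lay in sh-CACUL1 for 14 members (53.8%, against 41.6% of all genes) and in FLAG-CACUL1 for 8 (30.8%, against 16.7%).

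**Figure D1:**
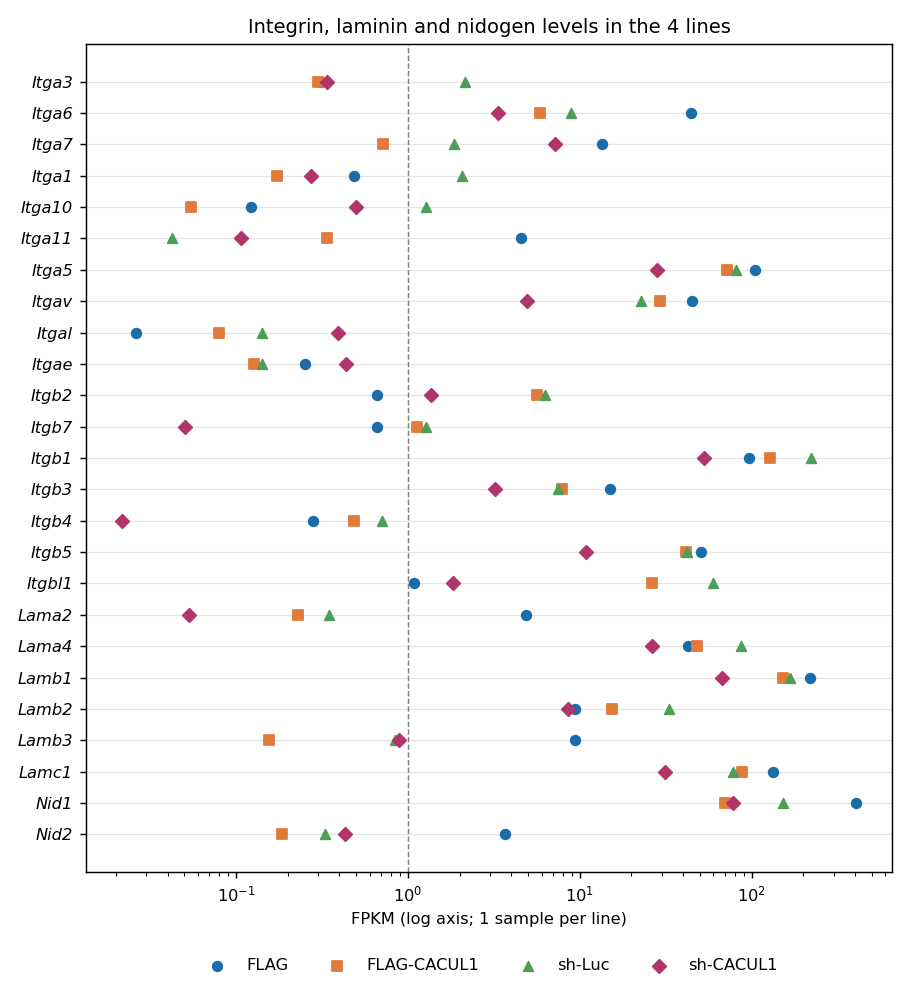
FPKM (log axis) of 25 members in the 4 lines, 1 sample per line and 1 symbol per sample, with a dashed line at 1 FPKM. Itga5, Itgb1, Lama4, Lamb1, Lamc1 and Nid1 lie at the right, above 20 FPKM in every line, and for Itga6, Itga11, Lama2, Lamb3 and Nid2 the FLAG sample stands apart to the right of the other lines.

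In FLAG-CACUL1 and sh-CACUL1, 3 of 26 members differed at least 2-fold in opposite directions, against 4.71% of all genes. Each line was compared with the control that has its own vector, so that no sample is shared. Itgb2 and Itgbl1 were higher in FLAG-CACUL1 and lower in sh-CACUL1, a pattern found in 3.02% of all genes. Itga7 did the reverse, as did 1.69% of all genes, and Itga6 was lower in both, as were 0.802% of all genes. With the other control, the log2 differences in FLAG-CACUL1 and sh-CACUL1 were -1.14 and 0.44 for Itgbl1 and -0.14 and 0.51 for Itgb2. For Itga7 they were -0.73 and -0.83. A CACUL1 effect and a difference between lines cannot be told apart here. When changes of any size are counted, 13 of 26 members had lower values in both comparisons, against 25.3% of all genes.

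**Figure D2:**
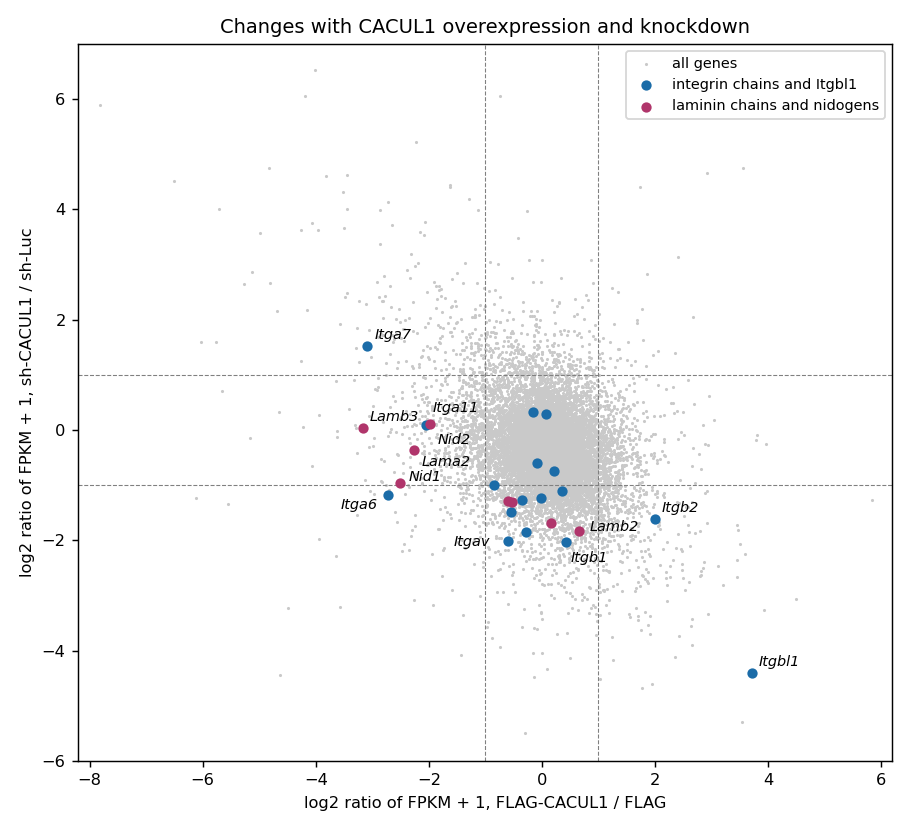
Log2 ratio of FPKM + 1 in FLAG-CACUL1 against FLAG (horizontal) and in sh-CACUL1 against sh-Luc (vertical), 1 point per gene, with integrin chains and Itgbl1 in blue, laminin chains and nidogens in magenta, all genes in grey, and dashed lines at 2-fold. Itgbl1 lies at 3.71 and -4.41, Itga7 at -3.09 and 1.52, and Lamb3, Nid1 and Lama2 lie far to the left with vertical values between -0.96 and 0.04.

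The laminin-binding alpha chains pair with beta1, and Itga6 also with beta4. Itga6 (alpha6; chr2:71745616-71858416, plus strand, gene span in GENCODE M21 on GRCm38) had 44.4 FPKM in FLAG and 5.86 in FLAG-CACUL1, with 8.86 in sh-Luc and 3.35 in sh-CACUL1. FLAG stood above the other 3 lines. The level was 7.58-fold lower with overexpression than in FLAG (interval 6.78 to 8.49, log2 -2.73) and 2.64-fold lower in sh-CACUL1 than in sh-Luc (interval 2.27 to 3.08, log2 -1.18, and -0.72 after quantile normalization, which is below 2-fold).

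Itga7 (alpha7, best known from skeletal muscle; chr10:128933818-128958282, plus strand) was the one member at least 2-fold higher after CACUL1 depletion on the log2(FPKM + 1) scale. It had 13.5 FPKM in FLAG and 0.712 in FLAG-CACUL1, with 1.85 in sh-Luc and 7.19 in sh-CACUL1. FLAG and sh-CACUL1, the lines with the most adipocyte marker RNA, were the higher pair. The level fell 19.0-fold with overexpression (interval 13.8 to 26.6, log2 -3.09) and rose 3.89-fold with depletion (interval 3.27 to 4.67, log2 1.52). Against FLAG in place of sh-Luc, sh-CACUL1 was lower, with a log2 difference of -0.83. Of 5 muscle markers Myod1 and Myog have no row, and the other 3 summed to 9.49 FPKM in FLAG, 6.07 with overexpression, 1.69 in sh-Luc and 6.64 with depletion, led by Des. Their part in the Itga7 values was not tested. The ratio of Itga7 to Itga6 was 0.305 in FLAG and 0.121 in FLAG-CACUL1, with 0.208 in sh-Luc and 2.14 in sh-CACUL1, so that alpha7 exceeded alpha6 in sh-CACUL1 alone among the 4 samples.

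Itga3 (alpha3, a receptor for epithelial laminins) was above 1 FPKM in sh-Luc, at 2.15, with 0.310 in FLAG, 0.300 in FLAG-CACUL1 and 0.340 after depletion. The last 3 lay close together. The log2 difference of -1.23 with depletion thus depends on sh-Luc, and it was 0.032 against FLAG.

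The collagen-binding alpha chains, which also pair with beta1, were low. Itga1 had 0.488 FPKM in FLAG and 0.172 in FLAG-CACUL1, with 2.07 in sh-Luc and 0.274 in sh-CACUL1. Itga10, a cartilage collagen receptor, had 0.122, 0.0549, 1.27 and 0.497 in the same order. For both genes only sh-Luc was above 1 FPKM. In GENCODE their exons overlap other annotated genes on the same strand, Gm49395 over 451 bases of Itga1 and Gm42957 over 1739 bases of Itga10, which have no row in the tables used here, so reads there cannot be assigned with certainty. Log2 differences with depletion were -1.27 for Itga1 and -0.60 for Itga10, and with overexpression -0.34 and -0.09. Itga11, the fibroblast receptor for fibrillar collagen, had 4.57 FPKM in FLAG (328 estimated fragments), 0.339 in FLAG-CACUL1, 0.0423 in sh-Luc (5.1 fragments) and 0.108 in sh-CACUL1 (8.0 fragments). It passed 1 FPKM in FLAG alone and was 13.5-fold lower with overexpression than in FLAG (interval 8.90 to 21.3, log2 -2.06), and its values in both hairpin lines were too low to show a difference (ratio 2.54, interval 0.740 to 9.97).

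The RGD-binding chains made up most of the alpha-chain RNA. Itga5, the fibronectin receptor chain, had 105 FPKM in FLAG and 71.7 in FLAG-CACUL1, with 80.7 in sh-Luc and 28.3 in sh-CACUL1. Itgav (alphaV, the partner of beta3 and beta5 in vitronectin receptors) had 45.0, 29.3, 22.9 and 4.93 in the same order. For both, sh-CACUL1 was the lowest of the 4 samples. With depletion Itga5 fell 2.85-fold (interval 2.71 to 3.00, log2 -1.48) and Itgav 4.64-fold (interval 4.24 to 5.10, log2 -2.01). With overexpression the log2 differences were -0.54 and -0.60, within 2-fold.

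Itgb1 (chr8:128685654-128733200, plus strand, downstream of the GC-rich stretch shown above) encodes beta1, the chain shared by the laminin, collagen and fibronectin receptors. It had 96.3 FPKM in FLAG and 129 in FLAG-CACUL1, with 220.3 in sh-Luc and 52.8 in sh-CACUL1. It was highest in sh-Luc and lowest in sh-CACUL1, with both FLAG-vector lines between them. It fell 4.17-fold with depletion (interval 4.02 to 4.34, log2 -2.04), whereas the log2 difference was -0.85 when sh-CACUL1 was set against FLAG. With overexpression it was 0.42, within 2-fold.

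The alphaV partners moved in the same direction with depletion. Itgb5 (beta5) had 51.1 FPKM in FLAG and 41.7 in FLAG-CACUL1, with 42.1 in sh-Luc and 10.9 in sh-CACUL1. Itgb3 (beta3) had 15.0, 7.91, 7.49 and 3.23. Beta5, the chain found in vitronectin receptors of many mesenchymal cells, was 3.36 to 5.62 times as abundant as beta3 in the 4 lines. Itgb5 fell 3.87-fold in sh-CACUL1 against sh-Luc (interval 3.52 to 4.25, log2 -1.86). Itgb3 fell 2.32-fold (interval 2.03 to 2.66, log2 -1.0), at the edge of the cut-off. With overexpression the log2 differences were -0.29 and -0.85.

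Within a sample, the make-up of the integrin chain RNA can be given without reference to another line. Itga5 was 49.0% of all alpha-chain FPKM in FLAG and 66.0% in FLAG-CACUL1, with 67.2% in sh-Luc and 61.7% in sh-CACUL1. Itga6 was 20.8%, 5.40%, 7.38% and 7.32%, and Itga7 was 6.35%, 0.656%, 1.54% and 15.7%. The laminin-binding chains therefore took their largest shares in FLAG and sh-CACUL1, by way of alpha6 in the first and alpha7 in the second. Among beta chains Itgb1 was 58.7%, 69.4%, 79.2% and 77.2%, and Itgb5 was 31.2%, 22.5%, 15.1% and 15.9%. The sum over alpha chains was 213, 109, 120.1 and 45.8 FPKM and that over beta chains 164, 186, 278 and 68.3, so alpha-chain RNA exceeded beta-chain RNA in FLAG alone.

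**Figure D3:**
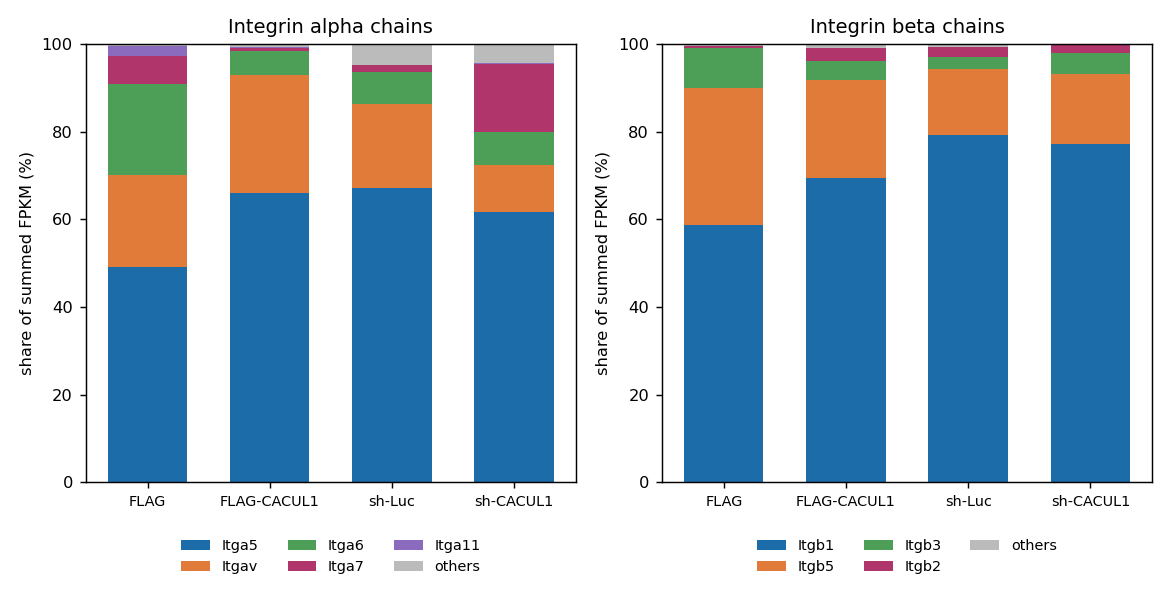
Share of the summed FPKM of the integrin alpha chains (left) and beta chains (right) in each line, as stacked bars of 1 sample each on an axis from 0 to 100%. Itga6 fills 20.8% of the alpha-chain bar in FLAG and Itga7 fills 15.7% in sh-CACUL1, while Itgb1 is the largest beta chain in every bar.

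The leukocyte integrins were mostly near the limit of detection. Itgb2 (beta2, the common chain of leukocyte integrins) had 0.664 FPKM in FLAG and 5.62 in FLAG-CACUL1, with 6.29 in sh-Luc and 1.37 in sh-CACUL1. FLAG-CACUL1 and sh-Luc formed the higher pair, the lines with the least adipocyte marker RNA, whose part in the result was not tested. It was 8.47-fold higher with overexpression than in FLAG (interval 5.64 to 12.7, log2 1.99) and 4.59-fold lower in sh-CACUL1 than in sh-Luc (interval 3.51 to 6.10, log2 -1.62). Of 8 leukocyte markers, 5 have no row, Ptprc, Adgre1, Cd3e and Spi1 among them, Csf1r was under 1 FPKM in all 4 lines, and the summed level of the 3 measured was 31.8 in FLAG and 44.0 in FLAG-CACUL1, with 4.10 in sh-Luc and 4.69 in sh-CACUL1. Cd14 had 15.0 and 42.2 FPKM in FLAG and FLAG-CACUL1, and Cd68 had 16.2 and 1.44. The part of these markers in the Itgb2 values was not tested. Of 5 endothelial markers 2 have a row, Pecam1 and Vwf, both under 1 FPKM in every line.

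Itgb7 (beta7, the partner of alphaE in mucosal lymphocytes) had 0.662 FPKM in FLAG and 1.12 in FLAG-CACUL1, with 1.28 in sh-Luc and 0.0508 in sh-CACUL1. Because this last level rests on 2.0 estimated fragments, the 25.1-fold lower level has an interval of 6.86 to 215 (log2 -1.11). Itgal, Itgae and Itgb4 stayed under 1 FPKM in all 4 lines. Their ranges were 0.0261 to 0.390 for Itgal, the LFA-1 alpha chain, 0.128 to 0.434 for Itgae, and 0.0218 to 0.708 for Itgb4, the hemidesmosome chain. None of the 3 passed 2-fold in a comparison on the log2(FPKM + 1) scale.

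Itgbl1 encodes a secreted protein that resembles the cysteine-rich repeats of integrin beta chains and is not itself a receptor chain. The gene (chr14:123659971-123975618, plus strand) had 1.09 FPKM in FLAG and 26.4 in FLAG-CACUL1, with 59.4 in sh-Luc and 1.83 in sh-CACUL1. As for Itgb2, FLAG-CACUL1 and sh-Luc were high and the other pair low. It was 24.2-fold higher with overexpression than in FLAG (interval 18.9 to 31.7, log2 3.71) and 32.4-fold lower in sh-CACUL1 than in sh-Luc (interval 26.8 to 39.3, log2 -4.41). The controls themselves differed by 54.4-fold (interval 42.6 to 70.9, log2 -4.85 for FLAG against sh-Luc), more than either pair. Against the other control, the log2 difference of FLAG-CACUL1 was -1.14 and that of sh-CACUL1 was 0.44, both of the opposite sign.

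Lama4, Lamb1 and Lamc1 held most of the laminin alpha, beta and gamma chain RNA among chains with a row. Lama1, Lama3, Lama5 and Lamc3 have no row, and trimer protein was not measured. Lama4, the laminin alpha chain of mesenchymal and adipose tissue, had 42.8 FPKM in FLAG and 47.9 in FLAG-CACUL1, with 87.1 in sh-Luc and 26.3 in sh-CACUL1. Lamb1 (chr12:31265234-31329644, plus strand) had 219.9, 153, 167 and 67.1, and Lamc1, the gamma chain that binds nidogen, had 134, 88.4, 78.4 and 31.4. All 3 were lowest in sh-CACUL1. With depletion Lama4 fell 3.31-fold (interval 3.16 to 3.46, log2 -1.69), Lamb1 2.49-fold (interval 2.42 to 2.56, log2 -1.30) and Lamc1 2.50-fold (interval 2.41 to 2.59, log2 -1.29). Against FLAG the log2 difference of Lama4 was -0.68, within 2-fold. Lamb1 and Lamc1 were at -0.83 after median-of-ratios scaling. With overexpression none passed 2-fold, the log2 differences being 0.16, -0.52 and -0.60.

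Lamb2, the beta chain of more mature basement membranes, took a smaller place. It had 9.42 FPKM in FLAG and 15.4 in FLAG-CACUL1, with 32.9 in sh-Luc and 8.58 in sh-CACUL1. Its ratio to Lamb1 was 0.0428, 0.101, 0.197 and 0.128 in the same order. It fell 3.84-fold with depletion (interval 3.54 to 4.15, log2 -1.82), while sh-CACUL1 and FLAG were close, with a log2 difference of -0.12.

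Among the minor laminin chains, Lamb3 and Lama2 were found mainly in FLAG. Lamb3, a chain of epithelial laminin, had 9.42 FPKM in FLAG and 0.156 in FLAG-CACUL1, with 0.843 in sh-Luc and 0.893 in sh-CACUL1. Lama2, the muscle and nerve laminin chain, had 4.89, 0.231, 0.348 and 0.0534. FLAG was above 1 FPKM for both genes and no other line was. Lamb3 was 60.2-fold lower with overexpression than in FLAG (interval 31.5 to 133, log2 -3.17) and Lama2 was 21.2-fold lower (interval 14.7 to 30.8, log2 -2.26). With depletion the log2 differences were 0.04 and -0.36. Of 5 epithelial markers only Krt8 has a row, at 0.813 FPKM in FLAG and 0.206 in FLAG-CACUL1, with 2.64 in sh-Luc and 0.117 after depletion. Its part in the Lamb3 values was not tested.

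Nid1 (nidogen-1; chr13:13437551-13512269, plus strand, downstream of the stretch with the C/EBP motif shown above) was the most abundant member in FLAG. It had 404 FPKM in FLAG and 69.7 in FLAG-CACUL1, with 153 in sh-Luc and 78.3 in sh-CACUL1, rank 191, 1024, 398 and 740 of the 13085 genes. Both CACUL1 lines were below both controls. It fell 5.80-fold with overexpression (interval 5.64 to 5.96, log2 -2.52) and was 1.96-fold lower with depletion (interval 1.90 to 2.01, log2 -0.96), just short of the cut-off. After quantile normalization and median-of-ratios scaling, the log2 difference of Nid1 with depletion was -0.82 and -0.49. Its ratio to Lamc1, the laminin chain it binds, was 3.01 in FLAG and 0.789 in FLAG-CACUL1, with 1.95 in sh-Luc and 2.49 in sh-CACUL1. FLAG-CACUL1 was thus the one sample with less nidogen-1 than gamma1 RNA.

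Nid2 (nidogen-2), the second nidogen, had 3.66 FPKM in FLAG and 0.184 in FLAG-CACUL1, with 0.331 in sh-Luc and 0.432 in sh-CACUL1. It too passed 1 FPKM in FLAG alone and was 19.8-fold lower in FLAG-CACUL1 (interval 11.2 to 37.3, log2 -1.98), while the log2 difference with depletion was 0.11. Its exons share 437 bases with Rtraf on the opposite strand, which had 71.1, 61.0, 63.4 and 72.2 FPKM. Whether the library kept strand is not given in the sources used here, so reads of the shared bases cannot be assigned, and their part in the Nid2 values was not tested. Stretches of Itga7 (9 bases), Nid1 (143), Lama2 (154) and Itgb4 (537) also have annotated exons on the opposite strand.

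**Figure D4:**
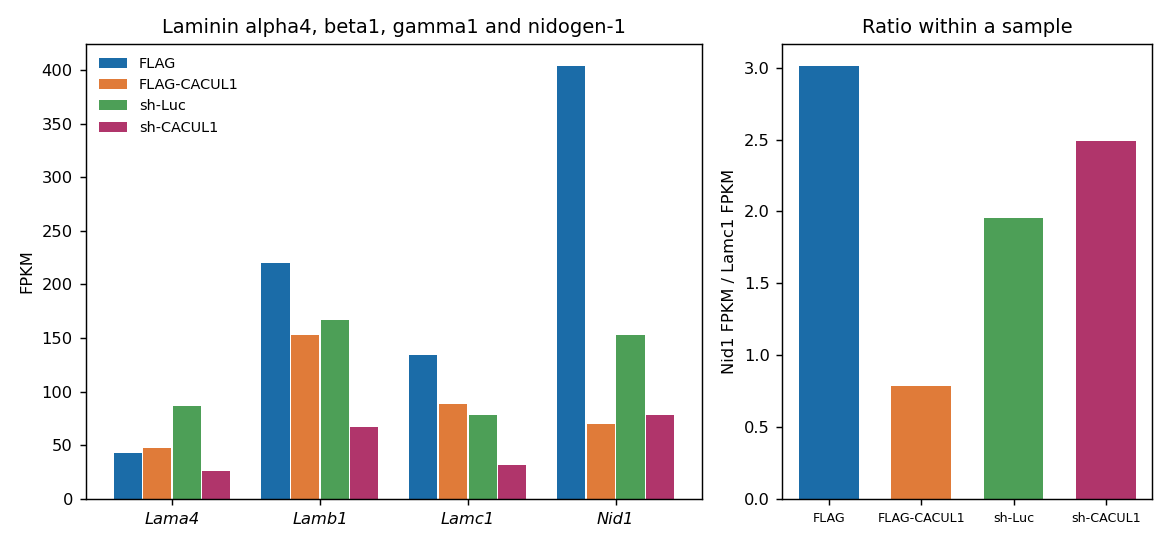
FPKM of Lama4, Lamb1, Lamc1 and Nid1 in the 4 lines (left) and the ratio of Nid1 to Lamc1 within each sample (right), 1 sample per bar, both axes from 0. Nid1 reaches 404 FPKM in FLAG and 69.7 in FLAG-CACUL1, the ratio falls under 1 only in FLAG-CACUL1, and sh-CACUL1 has the lowest bar for each laminin chain.

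Because the controls differ, each CACUL1 line was also set against the control with the other vector. FLAG-CACUL1 was then at least 2-fold lower for 6 members (4.87% of all genes), Itga3, Itga1, Itga10, Itgbl1, Lamb2 and Nid1, and higher for none. The falls of Itga6, Itga7, Lamb3, Lama2 and Nid2 became log2 differences of -0.52, -0.73, -0.67, -0.13 and -0.17, all within 2-fold, and Itga11 was at 0.36 and Itgb2 at -0.14. Nid1 was the one member below both controls at 2-fold (1.03% of all genes), with a log2 difference of -1.12 from sh-Luc. That difference is unscaled and lies near the cut-off. Median-of-ratios scaling divides FLAG-CACUL1 values by 1.05 and sh-Luc values by 1.17, which brings it below 2-fold. For sh-CACUL1 against FLAG, 12 members were lower (15.4% of all genes) and none higher. The 7 members at least 2-fold below both controls were Itga5, Itgav, Itga6, Itgb3, Itgb5, Lamb1 and Lamc1 (6.74% of all genes), with log2 differences from FLAG between -1.70 and -3.38. Of these, Itga6, Itgb3, Lamb1 and Lamc1 came below 2-fold against sh-Luc after median-of-ratios scaling, at -0.78, -0.61, -0.83 and -0.83. The comparisons with the other control share the CACUL1 sample with the first set and are not a second measurement.

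**Figure D5:**
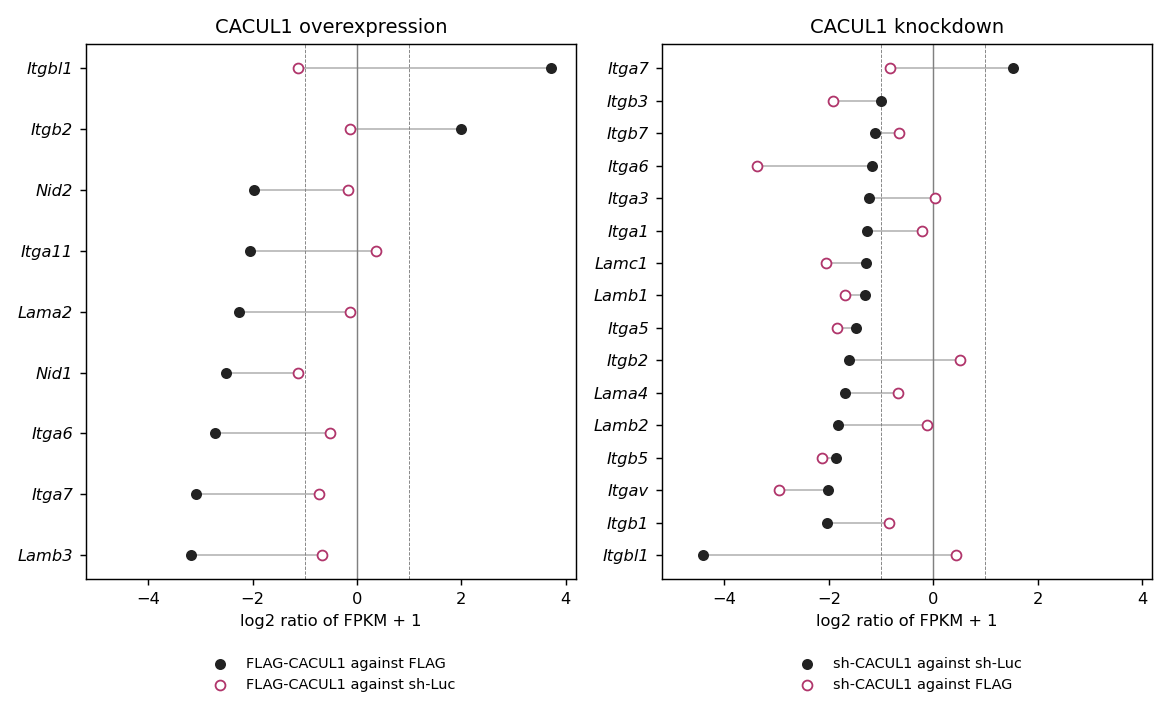
Log2 ratio of FPKM + 1 for the members changed in FLAG-CACUL1 (left) and sh-CACUL1 (right), with the control of the same vector as filled circles, the other control as open circles, and dashed lines at 2-fold. Itgbl1 moves from 3.71 to -1.14 on the left and from -4.41 to 0.44 on the right, whereas Itgav, Itga5 and Itgb5 stay beyond 2-fold with either control.

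Proteins that work with integrins were followed as lists. The shares of all genes to set beside their counts are 7.51% higher and 7.22% lower with overexpression and 4.94% higher and 16.4% lower with depletion, and the medians over all genes are 0.09 and -0.30. Of 17 integrin activators and adaptors with a row (18 listed), 3 fell with overexpression (17.6%) and 9 with depletion (52.9%), and none rose in either, with medians of 0.14 and -1.0. Lims2, a PINCH adaptor of the ILK complex, had 20.7 FPKM in FLAG and 1.86 in FLAG-CACUL1, with 2.44 in sh-Luc and 4.69 in sh-CACUL1. Fermt2 (kindlin-2, an activator of beta chains) had 61.9, 19.2, 29.1 and 21.9. Both were highest in FLAG, with log2 differences of -2.93 and -1.64 with overexpression. Tns3, a tensin, had 13.4, 15.1, 44.5 and 4.71 FPKM, and Parvb, the ILK partner beta-parvin, had 11.3, 16.6, 9.28 and 1.12. Both were lowest in sh-CACUL1, with log2 differences of -3.0 and -2.28 with depletion.

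Of the 8 focal adhesion signalling genes, 3 fell with overexpression (37.5%, against 7.22% of all genes) and 3 with depletion (37.5%, against 16.4%), and none rose, with medians of 0.27 and -0.91. With overexpression the log2 difference was -1.48 for Ptk2b, a kinase related to FAK, and -1.17 for Bcar1, the p130Cas scaffold. With depletion it was -2.40 for Nedd9, another scaffold of that family, and -1.14 for the adaptor Crkl. Between FLAG and sh-Luc none of the 8 passed 2-fold, and the widest were Bcar1 at 0.94 and Crk at -0.77. The falls of Bcar1 and Crkl nevertheless depended on the control. Bcar1 had 27.2 FPKM with overexpression, 62.4 in FLAG and 32.1 in sh-Luc, the last within 2-fold. Crkl had 5.44 with depletion, 13.2 in sh-Luc and 7.33 in FLAG, again within 2-fold. Ptk2b (2.83 with overexpression, 9.66 in FLAG, 10.9 in sh-Luc) stayed beyond 2-fold with either control. So did Nedd9 (2.31 with depletion, 16.4 in sh-Luc, 16.5 in FLAG).

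Of 11 other basement membrane components with a row (13 listed), 1 fell with overexpression (9.09%, near the 7.22% of all genes) and 5 with depletion (45.5%, against 16.4%), with medians of -0.43 and -0.85. Col4a1, a collagen IV chain, had 796 FPKM in FLAG and 314 in FLAG-CACUL1, with 711 in sh-Luc and 323 in sh-CACUL1, a log2 difference of -1.34 with overexpression. The other leading chain, Col4a2, had 514, 263, 509.5 and 197, a log2 difference of -1.37 with depletion. Both were thus higher in the 2 controls than in the 2 CACUL1 lines, as Nid1 was. Agrin (Agrn), a heparan sulphate proteoglycan, was at -2.43 with depletion, Sparc, which binds collagen IV, was at 0.99 with overexpression and -0.78 between FLAG and sh-Luc, and Col18a1 was 3.22 higher in FLAG than in sh-Luc.

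Of 10 non-integrin laminin receptors and tetraspanin partners with a row (11 listed), 2 rose and 5 fell with overexpression (70.0% changed, against 14.7% of all genes), and 5 fell with depletion (50.0%, against 16.4%), with medians of -0.79 and -0.96. The 2 controls differed as much, with 5 higher and 2 lower in FLAG than in sh-Luc (70.0%, against 21.0% of all genes). The syndecans Sdc3 and Sdc4, heparan sulphate co-receptors of integrins, had 133 and 293 FPKM in FLAG, against 23.1 and 71.9 in FLAG-CACUL1, and 19.97 and 42.5 in sh-Luc against 3.58 and 26.8 in sh-CACUL1. FLAG again stood above the other lines. Their log2 differences were -2.48 and -2.01 with overexpression and 2.68 and 2.76 between FLAG and sh-Luc. With depletion the widest in this list were Cd9, a tetraspanin, at -2.80 and Sdc2 at -2.24. Cd9 had 56.5 FPKM in FLAG and 39.1 in FLAG-CACUL1, with 262 in sh-Luc and 36.7 in sh-CACUL1. For Cd9 sh-Luc thus stood above the other lines, and sh-CACUL1 was within 2-fold of FLAG. Sdc2 had 22.8, 62.5, 51.9 and 10.2 in the same order.

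Of 9 other integrin ligands with a row (10 listed), 1 rose with overexpression (11.1%, against 7.51% of all genes) and 7 fell with depletion (77.8%, against 16.4%), with medians of 0.09 and -1.91. Fn1 (fibronectin, the ligand of alpha5 with beta1) had 928 FPKM in FLAG and 986 in FLAG-CACUL1, with 745 in sh-Luc and 35.8 in sh-CACUL1, a log2 difference of -4.34 with depletion. Spp1 (osteopontin, a ligand of alphaV integrins) had 148, 171, 51.2 and 5.29, with -3.05. Both ligands and their receptor chains Itga5 and Itgav were lowest in sh-CACUL1, the line with the lowest preadipocyte and fibroblast marker sum, although Dlk1 and Thy1 of that list rose there against sh-Luc. The part of these markers in the values was not tested. With overexpression Vcam1, a ligand of alpha4 integrins, was at 1.33 and Mfge8 at -0.60. Between FLAG and sh-Luc Spp1 was at 1.51 and Tgfb1, whose latent form binds alphaV integrins, at 1.46.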

How the data were processed

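RNA was taken from 4 stable 3T3-L1 lines, 1 sample each, and groups follow the labels. The authors deposited FPKM values for 13110 rows named by RefSeq transcripts. The libraries were made and sequenced by a company, the submitters' processing notes name the build mm10, and the aligner, the program that computed FPKM, the normalization and strandedness are not given in the sources used here. Symbols came from the RefSeq cross-references of GENCODE M21 and, for 144 rows, from RefSeq's table for GRCm38.p6. In all 47 rows had no symbol, 8 had several symbols, and the 50 rows that shared a symbol were summed, leaving 13085 genes. The members and lists were chosen with earlier results of these data known. All members found by the naming rule are accounted for: those with at least 1 FPKM in any sample with all their values, the others by their range, except 1 member that is counted but whose values are not reported here. From each further list, the 2 genes of at least 1 FPKM in all samples with the widest log2 difference per comparison are named. Differences are log2 ratios of FPKM + 1 (pseudocount 1), changed meaning at least 2-fold, with no test and no further filter on the deposited rows. Each deposited row had a positive value in all 4 lines. The sources used here do not say whether genes undetected in some line were removed before deposit. With 1 sample per line, biological and technical spread are unknown. Depth was estimated from the spacing of FPKM times length in single-transcript rows of at least 3000 bases, and the 95% intervals of ratios (Clopper-Pearson) use those fragments and cover counting error only. The depth estimate was tested on simulated data. Other pseudocounts, filters, scalings, the other control and a 3-fold cut-off were tried. Python 3.11.15, numpy 2.4.6, pandas 2.3.3, scipy 1.17.1 and matplotlib 3.10.9 were used.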

Additional observations from a re-analysis of the deposited data

How the results depend on the processing

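No paired analysis was possible because each line has 1 sample, so the lines share a single replicate number, and no replicate could be left out. Among the 12 members of at least 1 FPKM in all samples, 3 (25.0%) changed in FLAG-CACUL1 against FLAG, 6 (50.0%) in FLAG against sh-Luc, 11 (91.7%) in sh-CACUL1 against sh-Luc and 1 in opposite directions with gain and loss of CACUL1, in place of 9, 15, 16 and 3 of 26. Among the 9563 genes passing the same filter, 15.2%, 22.1% and 23.0% changed in these 3 comparisons. With a 3-fold cut-off, 7 changed in sh-CACUL1 against sh-Luc in place of 16, and 9 in FLAG against sh-Luc in place of 15. With the other control, 0 changed in opposite directions. Against sh-Luc, FLAG-CACUL1 reversed sign for Itga11 (0.36), Itgb2 (-0.14) and Itgbl1 (-1.14), and against FLAG, sh-CACUL1 reversed for Itga3 (0.032), Itga7 (-0.83), Itgb2 (0.51) and Itgbl1 (0.44). These 7 were the only sign changes of a called member under the alternatives run. Between FLAG and sh-Luc, Itgav (1.02 and 1.23) and Itgb3 (1.13 and 1.18) passed 2-fold after quantile normalization and median-of-ratios scaling, Itga1 (-0.85 and -0.87) and Itga10 (-0.89 under both) came below it, and so did Itgb1 (-0.89) and Lama4 (-0.72) under the second. Over all genes, scaling changed the split with depletion from 647 higher and 2141 lower to 1178 and 1084 (quantile) or 1231 and 975 (median of ratios). With overexpression it changed from 983 and 945 to 831 and 1020 or 755 and 1169, and between the controls from 1123 and 1627 to 1345 and 1143 or 1565 and 937. Without a pseudocount 12, 23 and 18 members passed 2-fold with overexpression, with depletion and between the controls. The shares of all genes were 28.8%, 36.7% and 36.0%. Depth limits Itga10, Itga11, Itgae, Itgal, Itgb4 and Itgb7, which rest on fewer than 10 estimated fragments in at least 1 line, and Lama2 and Lamb3 in 1 line each.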
